A study of Ovis aries with 18 samples.

Results

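The genes described here stood high in longissimus lumborum alone among 3 skeletal muscles of lambs. Longissimus lumborum (LL) is the long loin muscle beside the spine, psoas major (PM) is the tenderloin muscle that flexes the hip, and soleus (SOL) is a small postural muscle of the lower hind leg. There were 6 libraries of each, LL 1 to 6, PM 1 to 6 and SOL 1 to 6, from left carcass sides, and no treatment is named. Not given in the sources used here are breed, age, sex and which libraries share a lamb, so that p-values cover only the spread among these libraries.

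Members were chosen by their mean FPKM (reads divided by gene length in kilobases and by counted reads in units of 1000000) over the 6 libraries of each muscle. A gene belonged to the set when its LL mean was at least 5 FPKM and at least 2 times both the PM mean and the SOL mean, while the PM and SOL means lay within 2-fold of each other. This left 38 of the 20477 genes in the deposited table. Of 8736 genes with at least 5 FPKM in LL, 61 were at least 2-fold higher there than in both other muscles, and 23 of these were set aside because PM and SOL differed by 2-fold or more. These numbers leave out ENSOARG00020005847 and ENSOARG00020013617, which were removed by name. All differences between LL, PM and SOL means given below were used in this choice, so that they describe the genes and test nothing.

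Skeletal muscles differ in their mix of slow, oxidative and fast, glycolytic fibres. Soleus is known as a slow postural muscle, whereas longissimus holds mostly fast fibres. Muscles at different body positions also differ in the patterning genes they express. The deposited table names genes only by Ensembl sheep identifier, and 0 of these matched the RefSeq gene table used, so that neither symbols, roles, positions nor sequences are given, and the gene lists drawn up for fibre types, metabolism, patterning and other cell types could not be counted, nor the labelled muscle checked by its markers. In whole muscle, fewer cells of a type and less RNA per cell cannot be told apart.

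LL libraries held 10216739 to 12839575 reads, PM libraries 11124192 to 13747139 and SOL libraries 11924862 to 14747118. LL 3 had the lowest total and, at 12704, the fewest genes with a read. In 11 genes chosen for at least 10 FPKM in both LL and PM and less than 1% of that level in each of SOL 1, 2, 4, 5 and 6, SOL 3 held 1.8% to 4.52% of it. Of the 38 members, 0 were among these genes, and no other SOL library was left out of such a choice. Without SOL 3 the rule for members gave 35 genes, 33 of them among the 38. Without LL 3 it gave 29, of which 24 were among the 38.

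Most members were of low to middle abundance and lay close to the 2-fold limit. The LL mean was under 10 FPKM for 16 genes, 10 to 20 FPKM for 10 genes and 20 FPKM or more for 12 genes, with a median of 11.5 FPKM and extremes of 5.51 and 770.5 FPKM. The LL mean exceeded the larger of the PM and SOL means by under 2.5-fold in 25 genes, by 2.5-fold to 3-fold in 6 and by 3-fold or more in 7. The highest ratio was 6.56 and the median 2.26. Reads summed over the 6 LL libraries numbered 93 to 79626 per gene.

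**Figure D1:**
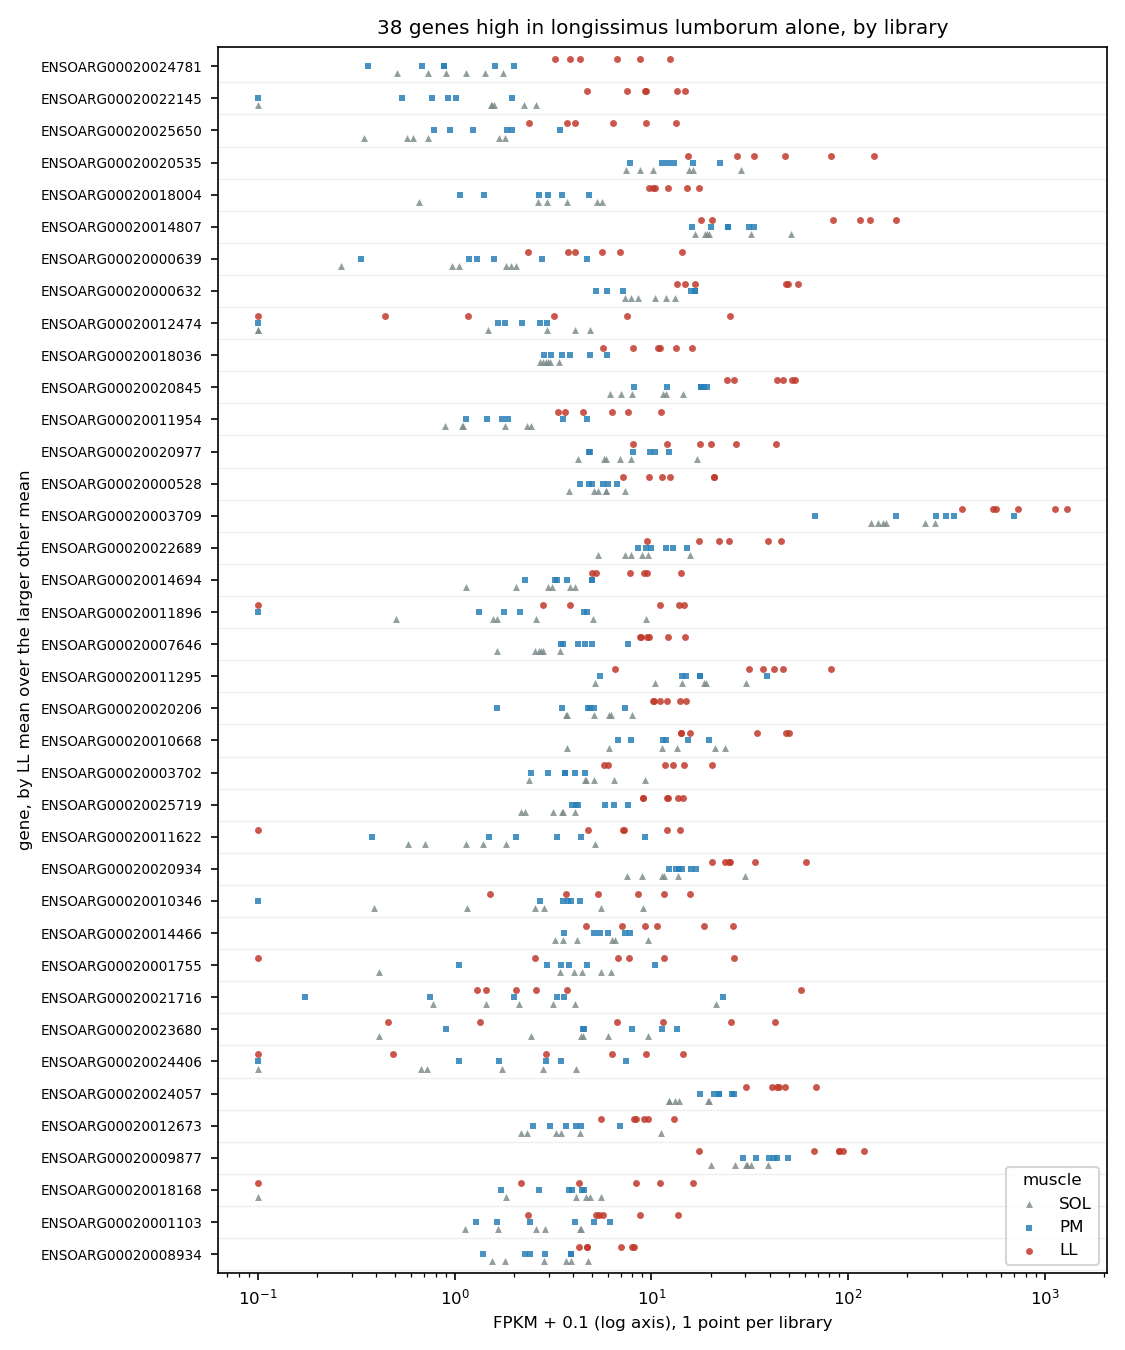
FPKM + 0.1 on a log axis for each of the 38 genes (rows, ordered by the LL mean over the larger of the PM and SOL means), with 1 point per library and a colour and symbol per muscle. In 9 rows every LL point lies to the right of every PM and SOL point; in the other rows the muscles overlap, and single LL points far to the right carry some of the means.

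How clearly LL stood apart varied among the 38 genes. Every LL library lay above every PM and SOL library for 9 of them, beside 0.356% of the 15434 genes tested. LL lay above all PM libraries but not all SOL libraries in 4 further genes, above all SOL but not all PM libraries in 6, and above neither in 19. The shares of all genes in these last groups were not counted. When libraries of the same number were set side by side, LL was the highest of the 3 in all 6 numbers for 18 genes, in 5 numbers for 12, in 4 numbers for 4 and in 3 or fewer for 4. The 18 genes were 47.4% of the members, beside 2.82% of other genes of at least 5 FPKM in LL. Since the rule used these values, the counts show only how evenly the difference was spread over libraries.

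A model fitted to all genes used the same libraries that chose the members, so that its calls also only describe them. In limma on log2(FPKM + 0.1), 12 members were called higher in LL than in PM (adjusted p under 0.05), where 0.551% of all tested genes were. Against SOL, 27 members were called, beside 8.31% of all genes. The 12 called against PM were all called against SOL as well, beside 0.395% of genes called in both. Both comparisons use the same LL libraries, and the model had no block for library number. With such a block, 18 members were called over PM and 29 over SOL, beside 1.02% and 9.43% of all genes. The median log2 fold change of members was 1.18 for LL against PM and 1.36 for LL against SOL, while the medians of all tested genes were -0.06 and -0.24.

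PM and SOL, kept within 2-fold by the rule, were close in most members. The ratio of the SOL mean to the PM mean ran from 0.505 to 1.92 with a median of 0.929. PM was the higher of the pair in 24 genes and SOL in 14. The model called 3 members between SOL and PM, each higher in PM, beside 16.8% of all genes. Only 1 was called without PM 3, and likewise 1 without SOL 1.

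**Figure D2:**
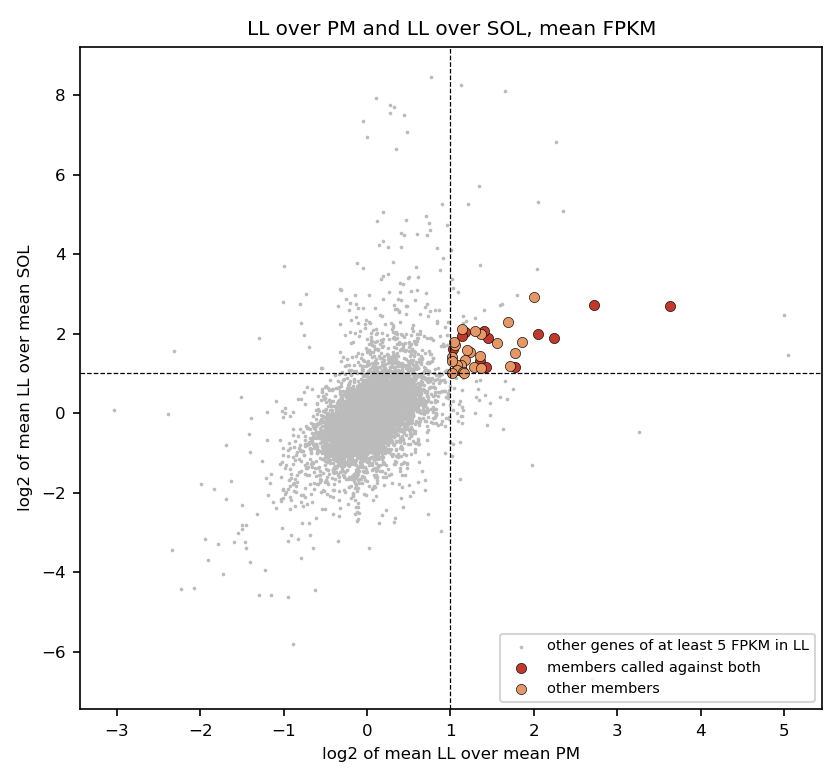
The log2 ratio of the LL mean to the PM mean (horizontal) against that of the LL mean to the SOL mean (vertical) for genes of at least 5 FPKM in LL, with members in colour and the 2-fold limits as dashed lines. Members crowd at the 2-fold limits, with 2 genes beyond 6-fold over both other muscles; grey points in the same corner are genes whose PM and SOL means were 2-fold or more apart.

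The gene with the highest ratio was ENSOARG00020024781 (recovered gene length 5030 bp). LL 1 to 6 held 6.55, 4.21, 3.74, 12.3, 3.14 and 8.6 FPKM, PM 1 to 6 held 0.264, 0.579, 0.786, 1.5, 0.784 and 1.91, and SOL 1 to 6 held 1.04, 1.66, 0.407, 0.8, 0.634 and 1.32. The lowest LL library stood above the highest of the other 12. Its LL mean was 6.42 ± 3.52 FPKM, its PM mean 0.97 ± 0.613 and its SOL mean 0.978 ± 0.462 (SD over 6 libraries, as for all means below), with log2 fold changes of 2.65 (SE 0.45) over PM and 2.55 (SE 0.45) over SOL. PM and SOL were thus nearly equal, at a ratio of 1.01.

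ENSOARG00020022145 (587 bp) came next and rested on few reads. It held 9.26, 7.43, 9.17, 4.58, 13.4 and 14.7 FPKM in LL 1 to 6, which were 401 reads in all. PM held 0.666, 1.86, 0.919, 0.821, 0 and 0.442 FPKM (35 reads) and SOL 1.49, 2.15, 2.49, 1.43, 0 and 1.45 (68 reads). LL again did not overlap with the other muscles, and library 5 was at 0 in both of them. The LL mean of 9.75 ± 3.74 FPKM was 12.4 times the PM mean and 6.49 times the SOL mean. The call over PM was lost with a pseudocount of 0.01 in place of 0.1 (log2 fold change 4.49, limma adjusted p = 0.0748).

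ENSOARG00020018004 (729 bp) showed the same arrangement with a smaller spread. LL 1 to 6 held 9.67, 17.4, 12.1, 10.1, 15.1 and 10.3 FPKM, PM 1 to 6 held 0.965, 4.69, 2.59, 3.41, 2.87 and 1.3, and SOL 1 to 6 held 2.84, 5.52, 3.61, 5.18, 0.558 and 2.54. The groups did not overlap, and library 2 was the highest in each muscle. Means were 12.4 ± 3.14, 2.64 ± 1.38 and 3.38 ± 1.83 FPKM, with log2 fold changes of 2.34 (SE 0.45) over PM and 2.09 (SE 0.45) over SOL.

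In 2 more abundant genes, LL was also separate from both other muscles. ENSOARG00020020845 (2037 bp) held 46.5, 24.2, 53.5, 43.3, 51.9 and 26.3 FPKM in LL 1 to 6, 18.4, 8.07, 17.8, 11.9, 19.2 and 17.8 in PM, and 11.3, 14.4, 6.9, 7.82, 6.06 and 11.8 in SOL. Its means were 41.0 ± 12.7, 15.5 ± 4.48 and 9.71 ± 3.27 FPKM, in the order LL, PM, SOL. ENSOARG00020024057 (2719 bp) held 68.6, 40.7, 44.5, 43.6, 47.6 and 30.2 FPKM in LL, 25.6, 20.8, 26.2, 17.7, 22.0 and 21.9 in PM, and 12.2, 19.3, 19.6, 13.7, 12.1 and 13.0 in SOL. With means of 45.9 ± 12.6, 22.4 ± 3.17 and 15.0 ± 3.51 FPKM it only just met the 2-fold limit over PM (2.05 times), yet its lowest LL library, LL 6 at 30.2, was above the highest PM library at 26.2. It had the smallest SE of the named genes, with log2 fold changes of 1.00 (SE 0.17) over PM and 1.60 (SE 0.17) over SOL.

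The other 4 genes without overlap, named after their values were seen, had LL means of 8.36 to 12.0 FPKM. ENSOARG00020020206 (3307 bp) was the steadiest of all members in LL, at 10.1 to 14.8 FPKM in the 6 libraries, with a coefficient of variation (SD over mean) of 16.4%. It stood at 1.55 to 7.28 FPKM in PM and at 3.59 to 7.89 in SOL. ENSOARG00020025719 (3846 bp) had LL libraries at 8.99 to 14.4 FPKM, PM libraries at 3.86 to 7.54 and SOL libraries at 2.07 to 4.0. ENSOARG00020007646 (2378 bp) ranged from 8.61 to 14.7, 3.35 to 7.46 and 1.54 to 3.32 FPKM in the same order. ENSOARG00020014694 (971 bp) ranged from 4.89 to 14.1, 2.17 to 4.89 and 1.04 to 3.98 FPKM. In this last gene LL and PM met at the edge, where the lowest LL library and the highest PM library print alike, and it was the single gene of the 9 that was not called against PM.

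The most abundant member by far was ENSOARG00020003709 (1458 bp). It reached 727, 562, 379, 545, 1122 and 1289 FPKM in LL 1 to 6. PM 1 to 6 held 347, 67.7, 278, 174, 698 and 313 FPKM, and SOL 1 to 6 held 276, 130, 151, 142, 245 and 156. LL was the highest of the same-numbered libraries in all 6 numbers, although PM 5 stood above LL 2, LL 3 and LL 4. The LL mean was 770.5 ± 358 FPKM, the PM mean 313 ± 214 and the SOL mean 183 ± 61.0. The log2 fold change over PM was 1.49 (SE 0.41), with no call. Without PM 5 it was 1.79, and the gene was called (limma adjusted p = 0.0177). With library number as a block the gene was called too (limma adjusted p = 0.00854), though no label ties a number to a lamb.

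In other abundant members the LL libraries themselves were divided. ENSOARG00020014807 (1983 bp) stood at 114, 20.3, 129, 17.7, 176 and 83.2 FPKM in LL 1 to 6, against 16.0 to 33.0 in PM and 16.5 to 51.0 in SOL. LL 2 and LL 4 thus lay within the range of the other muscles while the other 4 lay above it (LL mean 90.1 ± 62.7 FPKM). It was called over SOL only (log2 fold change 1.45, SE 0.47). That call was lost without any 1 of LL 1, LL 3, LL 5, SOL 1, SOL 2, SOL 3 and SOL 6, at log2 fold changes of 1.16 to 1.39 and limma adjusted p = 0.05 to 0.069. Without LL 2 or LL 4 the gene was called over PM as well, at 1.77 and 1.81 in place of 1.44. ENSOARG00020020535 (957 bp) stood at 47.6, 27.2, 136, 33.0, 81.6 and 15.2 FPKM in LL, while PM held 7.72 to 22.3 and SOL 7.36 to 28.5. Without LL 3 its LL mean went from 56.7 to 40.9 FPKM and its call over PM was lost (log2 fold change 1.42, limma adjusted p = 0.0786); leaving out LL 1, LL 5 or any 1 of PM 2 to PM 6 also lost it (limma adjusted p = 0.0536 to 0.0939). ENSOARG00020009877 (771 bp) was the opposite case, with 1 low library. It held 66.9 to 120 FPKM in LL 1 to 5 and 17.4 in LL 6, below all libraries of PM (29.2 to 49.4) and SOL (20.0 to 39.0). Without LL 6 it was called over PM, with a log2 fold change of 1.22 (limma adjusted p = 0.000798) in place of 0.82. ENSOARG00020025650 (2765 bp) had 5 LL libraries above all others, at 3.6 to 13.2 FPKM, while LL 6 at 2.3 lay below PM 3 at 3.35; PM held 0.687 to 3.35 and SOL 0.245 to 1.7. It was not called over PM (log2 fold change 1.88, SE 0.50), but was without LL 6 (2.13) or without PM 3 (2.12). With library number as a block it was called as well (limma adjusted p = 0.00506).

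For 2 members the LL mean rested mostly on LL 3. ENSOARG00020021716 (1059 bp) stood at 57.4 FPKM in LL 3 and at 1.2 to 3.63 in the other LL libraries, so that LL 3 held 84.4% of the summed value. The same number was the highest in the other muscles: PM 3 held 22.9 FPKM against 0.0738 to 3.5 in the rest, and SOL 3 held 21.1 against 0.676 to 3.97. Without number 3 the means of the 3 muscles were 2.13, 1.87 and 2.21 FPKM, and LL was no longer the highest. ENSOARG00020012474 (231 bp) stood at 0, 7.42, 25.0, 0.342, 1.06 and 3.1 FPKM in LL 1 to 6, from 93 reads, 59 of them in LL 3. Its PM libraries ranged from 0 to 2.83 FPKM and its SOL libraries from 0 to 4.78, and without LL 3 its LL mean was 2.39 FPKM. The next highest share of 1 library was 48.8%, also in LL 3. Leaving out each member's own highest LL library, which can only lower the LL mean, brought 20 of the 38 under 2-fold over the larger of PM and SOL.

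For each of the 3 limits, the member nearest inside and the gene nearest outside lay close on the value limited, though not in level. ENSOARG00020024406 (255 bp) had the lowest LL mean, 5.51 ± 5.61 FPKM, with 2.68 ± 2.6 in PM and 1.6 ± 1.54 in SOL, while ENSOARG00020004836 missed the set at 4.9 ± 3.36 FPKM in LL, 2.24 in PM and 2.28 in SOL. ENSOARG00020008934 (1355 bp) was 2.02 times as high in LL as in SOL, at 6.03 ± 1.77, 2.69 ± 0.988 and 2.99 ± 1.25 FPKM in LL, PM and SOL. ENSOARG00020015465 missed the set at 1.997 times the PM mean, at 184.4 ± 76.2, 92.3 ± 17.8 and 72.1 ± 17.8 FPKM. ENSOARG00020011622 (1553 bp) was inside with PM 1.98 times SOL, at 7.45 ± 5.01, 3.38 ± 3.14 and 1.7 ± 1.71 FPKM, and ENSOARG00020021894 was outside at 2.14 times, at 19.0 ± 12.0, 7.72 ± 2.34 and 3.61 ± 0.437 FPKM.

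Because means of 6 libraries chose the members, the rule was repeated without each number in turn, and the genes it then gave were looked up in the libraries left out. Leaving out 1 number from all 3 muscles gave 29 to 47 genes. In the libraries left out, LL was the highest of the 3 for 53.2% to 86.2% of these genes. The share among other genes of at least 5 FPKM in the remaining LL libraries was 19.4% to 42.7%. LL was at least 2-fold over both for 26.2% to 62.1%, beside 0.426% to 4.12% of the other genes. The highest of these shares, for both sets of genes and both measures, came with number 3 left out. The median ratio of LL to the larger of PM and SOL in the left-out libraries was 1.35 to 2.78, lower than 2 for 5 of the 6 numbers, and it was 0.746 to 0.92 among the other genes. Taking as the other genes those of at least 5 FPKM in the left-out LL library gave shares of 21.4% to 49.2% and 0.658% to 6.75%. Of the 38 members, 13 met the rule in all 6 rounds.

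**Figure D3:**
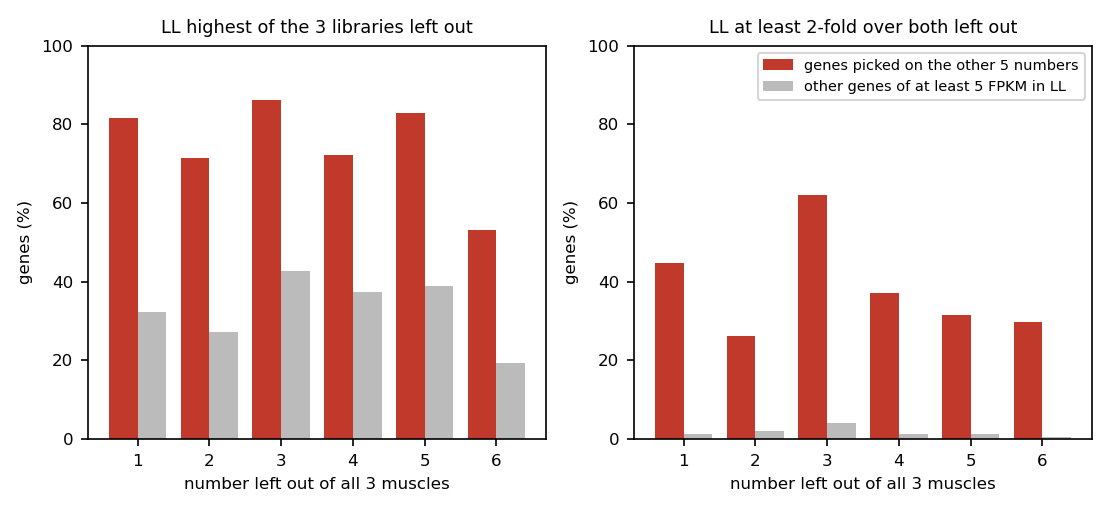
Share of genes in which LL was the highest of the 3 left-out libraries (left) or at least 2-fold over both (right), by the number left out, for genes picked on the other 5 numbers and for other genes of at least 5 FPKM in LL. The red bars are above the grey in each of the 6 rounds, at 53.2% to 86.2% against 19.4% to 42.7% on the left.

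LL 3 weighed more on the set than any other library. It was the highest LL library in 17 of 38 members (44.7%) and in 27.3% of other genes of at least 5 FPKM in LL. LL 5 was the highest in 8 members, LL 2 and LL 4 in 4 each, LL 6 in 3 and LL 1 in 2. The median member stood at 1.44 times its own LL mean in LL 3, at 1.03 times in LL 5, 0.934 in LL 1, 0.865 in LL 4, 0.762 in LL 2 and 0.738 in LL 6. For the other genes these medians lay between 0.955 and 1.02. LL 3 was above all PM and SOL libraries in 34 members, and LL 6 in 17. Among other genes this share was also highest for LL 3, at 21.0%, and lowest for LL 6, at 7.09%, while the order of the libraries between them differed. The means that chose the members rest on these same LL values, so that the differences from other genes only describe the set. The low total and gene number of LL 3 stand beside these values. Their part in the result was not tested.

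**Figure D4:**
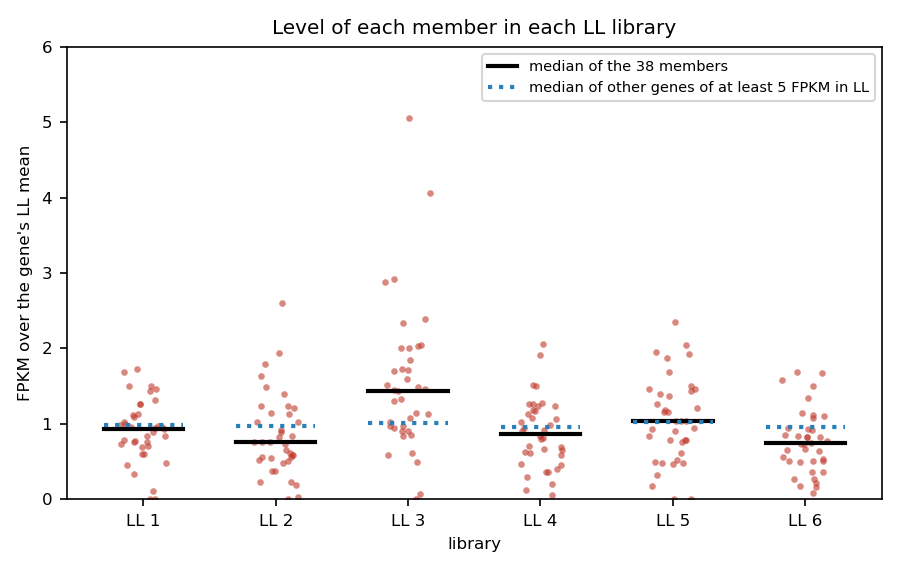
Level of each of the 38 members in each LL library, divided by that gene's mean over the 6 LL libraries, with the median of the members (black) and of other genes of at least 5 FPKM in LL (blue, dotted). The black line is highest in LL 3, at 1.44, and lowest in LL 6, at 0.738, while the blue line stays between 0.955 and 1.02.

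Members had a larger spread between libraries of a muscle than other genes. The median coefficient of variation over the 6 LL libraries was 56.3% for members and 25.9% for other genes of at least 5 FPKM in LL. Among genes of 20 FPKM or more in LL it was 54.8% for 12 members and 21.6% for the others. In PM and SOL the members stood lower than in LL, so they were set beside other genes of the same level in that muscle. At 1 to 5 FPKM the medians were 52.1% for 19 members and 39.2% for other genes in PM, and 56.4% for 19 members and 44.3% for other genes in SOL. At 5 to 20 FPKM they were 36.5% for 13 members against 21.9% in PM, and 43.7% for 14 members against 23.8% in SOL. At 20 FPKM or more they were 22.2% for 4 members against 16.7% in PM, and 33.3% for 3 members against 17.6% in SOL. In percentage points the difference in spread was thus largest at 5 to 20 FPKM in both muscles. The means that chose the members rest on the same values, so that this spread is given as a description. The 9 genes without overlap had a median of 27.5%. The 12 genes called against both muscles had 32.6%, the 15 called against SOL alone 51.4%, and the 11 called against neither 87.0%.

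For some members the highest library had the same number in every muscle. The same number was the highest in LL, PM and SOL for 7 members (18.4%), against 7.37% of other genes of at least 5 FPKM in LL. Number 3 was the highest for ENSOARG00020021716, ENSOARG00020023680, ENSOARG00020018168 and ENSOARG00020001103, number 2 for ENSOARG00020018004, number 5 for ENSOARG00020014807 and number 6 for ENSOARG00020000632. These genes were named after their values were seen. Some of the matches were near ties, with ENSOARG00020018168 at 4.44 FPKM in PM 3 and 4.34 in PM 1. ENSOARG00020001103 held 4.27 FPKM in SOL 3 and 4.24 in SOL 1. ENSOARG00020021716 was far ahead in each muscle. For pairs of muscles the shares of members and other genes lay closer together. LL and PM had the same highest number in 12 members (31.6%) and in 2091 of the 8700 other genes. LL and SOL had it in 11 members (28.9%) and in 1870 of the others. ENSOARG00020023680 (216 bp) held 42.6 FPKM in LL 3, 13.3 in PM 3 and 9.49 in SOL 3, above medians of 8.98, 6.14 and 4.34. ENSOARG00020000632 (1435 bp) held 14.7, 16.6, 48.4, 13.3, 49.3 and 55.4 FPKM in LL 1 to 6, where LL 3, LL 5 and LL 6 form a high group apart from the other libraries. In PM, libraries 2, 5 and 6 were the high ones, at 16.5, 15.8 and 16.6 FPKM, and PM 3 stood at 7.08. The design text has the muscles taken from each carcass, but no label ties a number to a lamb.

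**Figure D5:**
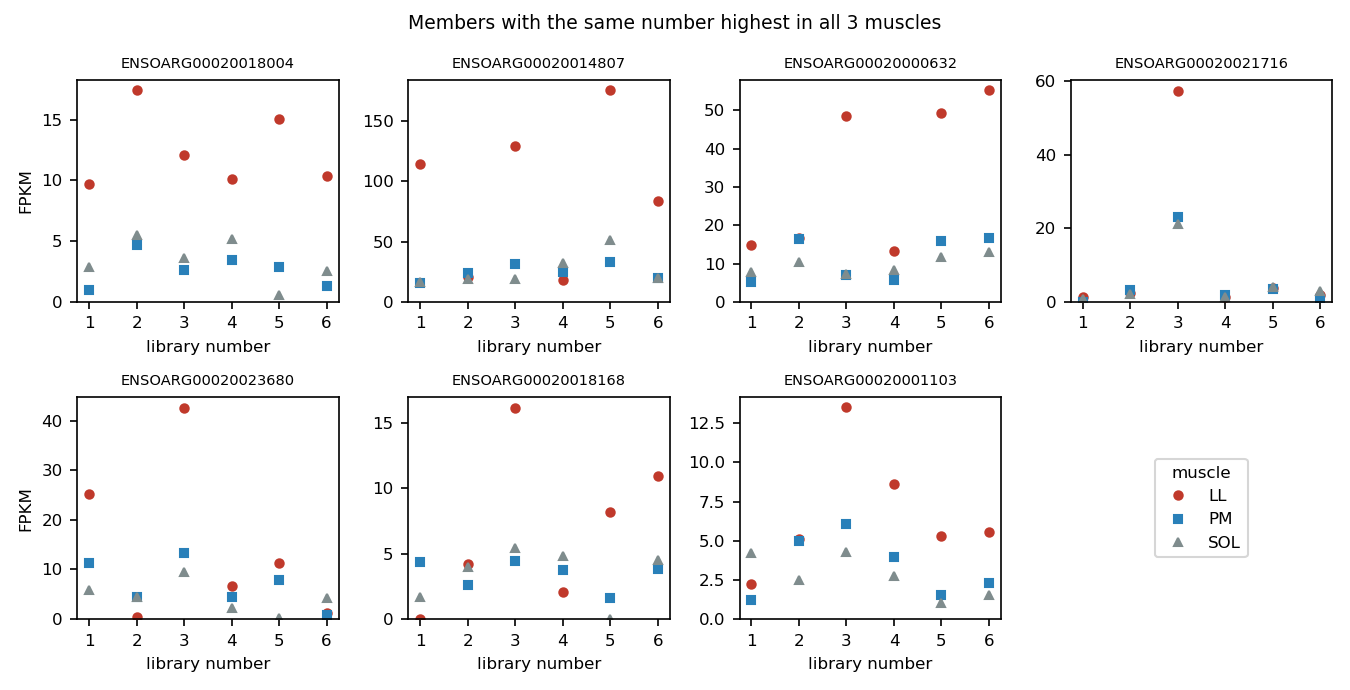
FPKM by library number for the 7 members whose highest library has the same number in LL, PM and SOL, with a colour and symbol per muscle. Number 3 is the highest in 4 genes; in ENSOARG00020021716 it stands at 57.4, 22.9 and 21.1 FPKM, far above the other 5 numbers of each muscle.

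Short genes were more common among members than among other genes. The median recovered length was 1056 bp in members and 1584 bp in other genes of at least 5 FPKM in LL, and 5 members (13.2%) were under 300 bp, against 1.72% of the others. These 5, with lengths of 216 to 276 bp, held 93 to 210 reads over the 6 LL libraries and a median LL coefficient of variation of 102%, against 55.0% for the other genes under 300 bp. None of the 5 was called against either muscle, beside 0.551% of all tested genes called higher in LL than in PM and 8.31% than in SOL. By contrast, the 9 genes without overlap had a median length of 2378 bp. Lengths were multiples of 3 in 24 members (63.2%) and in 44.7% of the other genes, beside 33.3% for lengths with no tie to codons. This held for all 5 of the short members and 93.3% of other genes under 300 bp, and for 3 of the 9 genes without overlap.

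Over the 23 members outside the rule for naming, 8 of which are described above, LL means ran from 5.99 to 40.8 FPKM and ratios over the larger of PM and SOL from 2.02 to 3.24. At least 1 LL library had no read in 6 of all 38 members, and with medians in place of means LL was under 2-fold over the larger of PM and SOL in 10 of the 38.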

How the data were processed

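RNA of 18 libraries, 6 for each muscle, was measured by sequencing after ribosomal RNA depletion, per the labels' protocols. The same protocols name Cutadapt for filtering, HISAT2 (2.2.1) for alignment to sheep, StringTie (2.2.0) for assembly, and a noncoding filter whose bearing on this table is unknown. Not given in the sources used here are build, annotation, counter and strand, so antisense and overlapping genes cannot be told apart. The submitters' processing notes name DESeq with no role. The deposited table names no unit; tested on its values, it holds FPKM as made by the authors. Each value times a whole gene length and a whole library total gave reads within 0.002 of a whole number, which returned reads, the smallest fitting lengths and totals of 10216739 to 14747118. The recovery and the model were also run on simulated data, with outcomes not given here. For the model, noise was drawn independently for each library, so that effects shared by a library number were not simulated.

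The 15434 genes averaging 0.1 FPKM or more entered a limma model (3.58.1, under R 4.3.3) of log2(FPKM + 0.1), with variance trend, a coefficient for each muscle, no block and 15 residual degrees of freedom. P-values were adjusted by Benjamini-Hochberg across all of them. A test for counts was not the main test, as the values are normalized. On this scale the fold changes of low genes depend on the pseudocount. With 0.01 in place of 0.1, the log2 fold change over PM rose from 3.82 to 4.49 for ENSOARG00020022145. For ENSOARG00020012474 it fell from 0.43 to 0.40. Named were the 6 members of the highest ratio, 4 further ones of the highest LL mean, those with over 50% of the LL sum in 1 library, and the genes nearest each limit. Members and lists were chosen with earlier results of these data known. Alternatives were other pseudocounts, filters, limits and scaling, the replicate block, fits on 2 muscles, leaving out libraries and, chosen after seeing the data, voom on the recovered reads.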

Additional observations from a re-analysis of the deposited data

Results flagged for a closer look

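In groups of 6 libraries, the highest and the lowest value were compared with the nearest other library (Dixon's test) for 2 library measures and the 15 genes named by rule. Of 51 sets, 6 stood out where chance alone flags about 1 in 20, but ENSOARG00020021716 and ENSOARG00020012474 were named because 1 LL library held over 50% of their LL sum, so that their LL values had to stand out and the count is not to be read against chance. In 3 of them the gene was ENSOARG00020021716, at 57.4 FPKM in LL 3 (next 3.63), 22.9 in PM 3 (next 3.5) and 21.1 in SOL 3 (next 3.97). ENSOARG00020012474 stood at 25.0 FPKM in LL 3, where the next library held 7.42. ENSOARG00020011622 stood at 5.07 FPKM in SOL 1, where the next held 1.73. SOL 5 had 14181 genes with a read, and the next lowest soleus library 14959.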

How the results depend on the processing

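The count of 38 members depended on the limits: a 3-fold limit over both muscles gave 7 genes and a minimum of 1 FPKM gave 86. Medians gave 32 genes, 24 of them among the 38, and median-ratio scaling gave 35, with 33 shared. Leaving out single libraries or numbers gave 29 to 48 genes. With 1 library left out, 11 to 16 members were called over PM, beside 0.33% to 0.978% of all genes tested. Over SOL, 24 to 28 were called, beside 7.45% to 8.71% of all genes. Calls over both muscles numbered 11 to 16 and calls between SOL and PM 1 to 4, while 9 to 12 members did not overlap. For these last counts the share of all genes was not taken. The median log2 fold changes were 1.14 to 1.28 over PM and 1.24 to 1.62 over SOL. Median-ratio scaling moved the median of all genes from -0.24 to -0.13 for LL against SOL, and that of members from 1.36 to 1.48.

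The replicate block gave 18 members called over PM and 29 over SOL, beside 1.02% and 9.43% of all genes. Of named genes it added calls over PM for ENSOARG00020003709, ENSOARG00020025650 and ENSOARG00020008934 (limma adjusted p = 0.00854, 0.00506 and 0.0354). Deviations from muscle means correlated across genes between same-numbered libraries at r of 0.125 to 0.229 for SOL and PM, 0.09 to 0.18 for LL and PM and 0.086 to 0.188 for LL and SOL, each above every different-numbered pair (at most 0.017, 0.007 and 0.052). Not every LL pair passed 0.1 and no label ties a number to a lamb, so the main model had no block. Its calls therefore leave out what same-numbered libraries share, and more members were called with the block.

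Log2 fold changes of 3 named genes, none called, turned negative without 1 library: ENSOARG00020021716 against SOL (-0.51 without LL 3, -0.10 without SOL 1, up to 0.86), ENSOARG00020012474 against PM (-0.33 without LL 3, -0.31 without PM 4, up to 1.26) and ENSOARG00020024406 against PM (-0.01 without LL 2, -0.26 without PM 2, up to 1.43). The cause was not tested.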
